A study of Mus musculus with 18 samples.

Results

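The BCL2 family of survival and death genes was followed through 10 members, of 23234 gene symbols in the RNA table, in T cells with and without G9a, the histone H3 lysine 9 methyltransferase encoded by Ehmt2. They were chosen by symbol: the survival genes Bcl2, Bcl2l1 (BCL-XL) and Mcl1, the pore formers Bax and Bak1, and the BH3-only death genes Bcl2l11 (BIM), Bbc3 (PUMA), Pmaip1 (NOXA), Bid and Bad. RNA came from spleen and lymph node T cells of C57BL/6 mice, sequenced 4 weeks into expansion in a lymphopenic host environment. There were 4 libraries of G9a knockout CD4+CD8+ cells (KO DP), 2 of G9a knockout CD4-CD8+ cells (KO SP) and 4 of G9a wild-type CD4-CD8+ cells (WT SP), and no wild-type CD4+CD8+ library, so genotype and CD4 state cannot be told apart in KO DP against WT SP. The chromatin mark H3K9me3 was mapped by native ChIP in separate cells, CD8 T cells cultured with antibodies to CD3 and CD28, as 2 Ehmt2-/- (KO) and 2 Ehmt2+/+ (WT) peak lists. The labels give neither the promoter or Cre that removed G9a nor whether libraries of a group came from separate animals.

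The balance inside this family decides whether mitochondria release cytochrome c and start the caspase cascade. Survival proteins hold BAX and BAK in check, and BH3-only proteins either block the survival proteins or activate the pore formers directly. In T cells, interleukin 7 and related cytokines are known to maintain Bcl2, BIM is a main killer of autoreactive thymocytes and of contracting T cells, and NOXA binds MCL1 by preference.

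Promoter sequences are given for 3 members: Bcl2, which differed most in RNA, and Bcl2l11 and Bbc3, the textbook FOXO targets of the family. Each is 250 bases before to 50 after a RefSeq start site (GRCm38.p6), written 5′ to 3′ on the gene's strand. The Bcl2 window is chr1:106714241-106714540 on the minus strand, with a CREB half-site (TGACG) in capitals.
Bcl2: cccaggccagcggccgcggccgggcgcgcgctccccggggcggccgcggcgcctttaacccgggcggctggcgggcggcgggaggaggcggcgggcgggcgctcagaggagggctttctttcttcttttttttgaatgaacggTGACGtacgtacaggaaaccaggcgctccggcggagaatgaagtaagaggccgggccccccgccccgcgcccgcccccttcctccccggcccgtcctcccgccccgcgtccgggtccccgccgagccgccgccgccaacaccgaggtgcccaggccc
The Bcl2l11 window is chr2:128125788-128126087 and the Bbc3 window chr7:16310011-16310310, both on the plus strand, with the FOXO motif GTAAACA or its reverse complement in capitals.
Bcl2l11: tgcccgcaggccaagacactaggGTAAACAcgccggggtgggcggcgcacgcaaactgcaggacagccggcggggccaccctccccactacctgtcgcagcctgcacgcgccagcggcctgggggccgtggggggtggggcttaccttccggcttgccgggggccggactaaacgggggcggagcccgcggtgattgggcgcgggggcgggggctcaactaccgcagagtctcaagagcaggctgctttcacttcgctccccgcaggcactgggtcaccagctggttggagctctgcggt
Bbc3: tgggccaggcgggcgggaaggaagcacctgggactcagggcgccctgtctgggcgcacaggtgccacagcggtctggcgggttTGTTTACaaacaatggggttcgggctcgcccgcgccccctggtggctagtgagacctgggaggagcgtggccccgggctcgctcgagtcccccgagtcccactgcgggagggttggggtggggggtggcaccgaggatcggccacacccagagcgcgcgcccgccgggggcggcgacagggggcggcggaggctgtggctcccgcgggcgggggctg

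Both strands of the members' windows were searched for 4 motifs of which none contains another, and Pmaip1 was not used here. The FOXO motif began at -227 in 1 of the 2 Bcl2l11 windows and at -167, on the opposite strand, in 1 of the 3 Bbc3 windows, and 3.65% of the 32851 RefSeq windows of this length hold it. The CREB half-site began at -107 in Bcl2 and occurred also in Mcl1 and in another Bbc3 window, and 20.8% of all windows hold it. The RUNX motif TGTGGT occurred in Bak1 (16.8% of windows) and the STAT motif TTCNNNGAA in none of the members' windows (8.30%). These matches describe letters and show no binding.

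RNA values are the authors' FPKM (fragments scaled to gene length and library) divided by a size factor per library, here called scaled FPKM, since the deposited columns differ in total. The totals ran from 441903 to 504013 in 8 libraries and were 292872 and 183632 in KO DP 3 and KO DP 4, which also carried more signal over 1118 olfactory receptor genes (mean 0.149 and 0.227 FPKM, against at most 0.0210 elsewhere). The titles fall in number ranges, 738 to 741 (KO DP 3 and 4, both KO SP, WT SP 3 and 4) and 34 to 37 (KO DP 1 and 2, WT SP 1 and 2). Summed scaled FPKM of 8 erythroid markers lay at 1.89 to 46.7 in titles 738 to 741 and at 438 to 1034 in titles 34 to 37. Myeloid markers lay at 12.5 to 36.2 and at 61.5 to 177. The 8 T cell markers summed to 2721 to 3356 in KO DP, 3318 to 3503 in KO SP and 2824 to 3509 in WT SP. Cd4 lay at 105 to 152 in KO DP, 0.156 to 0.191 in KO SP and 0.131 to 0.462 in WT SP. Ehmt2 lay at 15.5 to 20.1 in KO DP, 10.3 and 11.7 in KO SP and 16.9 to 38.0 in WT SP, and passed the test in none of the 3 comparisons. Its row covers the whole gene, so it is a limited check of the knockout. Xist lay at 2.36 to 5.52 in KO DP, 1.53 and 2.54 in KO SP and at most 0.0316 in WT SP, and Y-linked Eif2s3y at 0.269 to 0.927, 0.145 and 0.306, and 33.4 to 44.4, so sex and genotype cannot be told apart in comparisons with WT SP.

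Bcl2, the survival gene that cytokine signals maintain in resting T cells, was far lower in KO DP. It stood at 41.3, 17.2, 13.9 and 25.02 scaled FPKM in KO DP, at 75.7 and 112 in KO SP, and at 129, 110, 183 and 202 in WT SP. No KO DP library reached the lowest KO SP or WT SP library, and KO SP overlapped WT SP. In these bulk samples, fewer cells with the transcript and less transcript per cell cannot be told apart.

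The mean of Bcl2 was 24.3 ± 12.2 scaled FPKM in KO DP (SD, n = 4), 93.8 ± 25.6 in KO SP (n = 2) and 156 ± 43.7 in WT SP (n = 4). KO DP lay below WT SP by a log2 difference of -2.70 ± 0.33 (SE; adjusted p = 0.000811, limma; a gene is called where this p is under 0.05), a 6.52-fold fall on the log2(scaled FPKM + 1) scale that all folds here use. As deposited, without size factors, the difference was -3.09 ± 0.44 (adjusted p = 0.00182). Against KO SP, which shares the knockout and differs in CD4 state, it was -1.99 ± 0.40 (adjusted p = 0.0222), and -2.49 ± 0.54 as deposited (adjusted p = 0.0391). In KO SP against WT SP it was -0.71 ± 0.40 and was not called (adjusted p = 0.449). In WT SP the mean of Bcl2 exceeded that of 96.3% of the genes tested.

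The fall of Bcl2 against WT SP was called with any single library left out, and without KO DP 3 and 4 together (-2.46, adjusted p = 0.0154). Within titles 738 to 741 it was -3.30 (adjusted p = 0.00293), and within titles 34 to 37 it was -2.11 and was not called (adjusted p = 0.189), in fits that called 28.5% and 0.529% of all genes. The difference between the ranges was -1.19 ± 0.59 for Bcl2 and was not called (adjusted p = 0.430, limma interaction term). The fall against KO SP was less secure: it was not called without KO DP 2 (adjusted p = 0.0612), KO SP 1 (0.119) or KO SP 2 (0.239). Nor was it called without the filter on low values (0.0503) or without KO DP 3 and 4 together (-1.75, adjusted p = 0.0781). KO DP 3 and KO SP 1 share title number 738, and KO DP 4 and KO SP 2 share 739. With that number as a block, in these libraries alone, the fall was -2.24 and was not called.

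**Figure D1:**
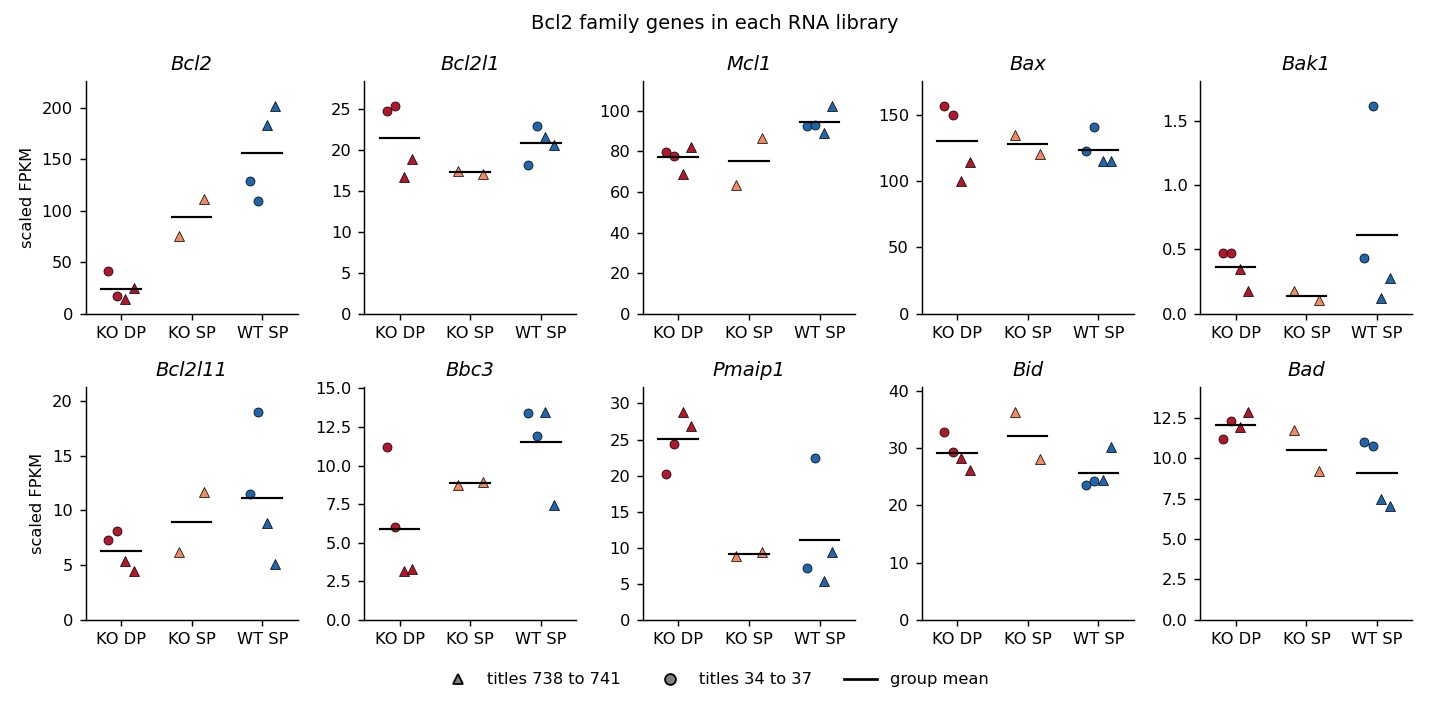
Scaled FPKM of the 10 members in each RNA library, KO DP, KO SP and WT SP from left to right; points are libraries, triangles titles 738 to 741 and circles titles 34 to 37, and bars are group means. Bcl2 is lowest in the 4 KO DP libraries (13.9 to 41.3), and Pmaip1 lies at 20.3 to 28.8 in KO DP with WT SP 2 (22.4) among them.

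Mcl1, the short-lived survival protein that T cells need at every stage, differed little. It stood at 79.7, 77.8, 69.1 and 82.2 scaled FPKM in KO DP, at 63.5 and 86.7 in KO SP, and at 92.5, 93.2, 89.2 and 102 in WT SP. Every KO DP and KO SP library lay below every WT SP library. The log2 difference from WT SP was -0.29 ± 0.12 in KO DP (adjusted p = 0.125) and -0.34 ± 0.14 in KO SP (adjusted p = 0.372), so neither was called. Bcl2l1, which protects activated T cells, stood at 24.8, 25.3, 16.6 and 18.9 in KO DP, at 17.4 and 17.0 in KO SP, and at 18.1, 22.9, 21.6 and 20.6 in WT SP. KO DP and WT SP overlapped (log2 difference 0.02 ± 0.15, adjusted p = 0.933), while both KO SP libraries lay below all WT SP libraries (-0.25 ± 0.18, adjusted p = 0.533).

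Bax, the pore former that moves to mitochondria on activation, was the most abundant of the 10 members per transcript length in every KO DP library and overlapped between all groups. It stood at 157, 150, 99.9 and 114 scaled FPKM in KO DP, at 135 and 120 in KO SP, and at 123, 141, 115 and 115 in WT SP. The log2 difference between KO DP and WT SP was 0.06 ± 0.16 (adjusted p = 0.834), and -0.35 ± 0.39 as deposited (adjusted p = 0.535). Bak1, the other pore former, was near the bottom of the table. It lay at 0.173 to 0.472 in KO DP, at 0.102 and 0.176 in KO SP, and at 0.121 to 1.61 in WT SP, where WT SP 2 was the highest. Its mean of 0.450 deposited FPKM fell below the filter of 0.5, and it was not tested.

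Pmaip1, a p53 and stress target whose product NOXA neutralizes MCL1, was the member called higher in KO DP than in WT SP on scaled values of all libraries. It stood at 20.3, 24.4, 28.8 and 26.8 scaled FPKM in KO DP, at 8.85 and 9.45 in KO SP, and at 7.21, 22.4, 5.44 and 9.35 in WT SP. WT SP 2 lay inside the KO DP range, and the other WT SP and both KO SP libraries lay below it. The mean was 25.1 ± 3.68 in KO DP (SD, n = 4), 9.15 ± 0.426 in KO SP (n = 2) and 11.1 ± 7.71 in WT SP (n = 4).

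The rise of Pmaip1 in KO DP against WT SP was 1.28 ± 0.34 on the log2 scale, 2.43-fold (adjusted p = 0.0292, limma). It was not called as deposited (0.90 ± 0.40, adjusted p = 0.170), with the replicate number as a block (adjusted p = 0.0527), without KO DP 3 and 4 together (adjusted p = 0.192), nor without KO DP 2, 3 or 4 or WT SP 1, 3 or 4 singly (adjusted p = 0.0636, 0.0835, 0.0760, 0.0801, 0.0780 and 0.0731). Without WT SP 2 it was 1.66 (adjusted p = 0.000528). Against KO SP the difference was 1.35 ± 0.42 and was not called (adjusted p = 0.0884), though the groups did not overlap, and without WT SP 2, which enters that fit only through the shared spread, the same difference was called (adjusted p = 0.00533). Within titles 738 to 741 the difference from WT SP was 1.82 (adjusted p = 0.00616), and within titles 34 to 37 it was 0.74 (adjusted p = 0.547).

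Bbc3 (PUMA), which binds all the survival proteins, lay lower in most KO DP libraries. It stood at 11.2, 6.02, 3.18 and 3.27 scaled FPKM in KO DP, at 8.74 and 8.95 in KO SP, and at 13.4, 11.9, 13.5 and 7.42 in WT SP. KO DP 1 lay within the WT SP range and the other 3 KO DP libraries below it. The log2 difference from WT SP was -0.97 ± 0.34 and was not called (adjusted p = 0.0746). It was called without KO DP 1 (-1.29, adjusted p = 0.0124), within titles 738 to 741 (-1.38, adjusted p = 0.0179) and with the title range as a covariate (adjusted p = 0.0213). Without KO DP 3 and 4 it was -0.41 (adjusted p = 0.424).

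Bcl2l11 (BIM) varied more among WT SP libraries than between groups. It stood at 7.27, 8.14, 5.37 and 4.47 scaled FPKM in KO DP, at 6.22 and 11.7 in KO SP, and at 11.5, 19.0, 8.86 and 5.11 in WT SP. All 3 groups overlapped, and the KO DP difference from WT SP was -0.63 ± 0.35 (adjusted p = 0.247). Bid, the BH3-only protein that caspase 8 cleaves to link death receptors to mitochondria, lay at 26.1 to 32.8 in KO DP, at 28.05 and 36.3 in KO SP and at 23.6 to 30.3 in WT SP (KO DP difference 0.18 ± 0.13, adjusted p = 0.372). Bad, which growth factor kinases hold inactive by phosphorylation, stood at 11.2, 12.3, 11.9 and 12.9 in KO DP, at 11.8 and 9.23 in KO SP, and at 10.99, 10.8, 7.49 and 7.03 in WT SP. KO DP lay just above WT SP without overlap, with a difference of 0.40 ± 0.16 that was not called (adjusted p = 0.126). It was 0.70 within titles 738 to 741 (adjusted p = 0.0291) and 0.10 within titles 34 to 37 (adjusted p = 0.740), and as deposited it was 0.03, with overlapping groups.

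Against KO SP, no member other than Bcl2 was called. Besides Pmaip1, the log2 differences in KO DP were -0.66 for Bbc3, -0.42 for Bcl2l11, 0.28 for Bcl2l1, 0.19 for Bad, -0.13 for Bid, 0.05 for Mcl1 and 0.01 for Bax (adjusted p = 0.340 to 0.989). For Bbc3 that difference was -1.22 and called within titles 738 to 741 (adjusted p = 0.0391), and -0.09 without KO DP 3 and 4 (adjusted p = 0.883). In KO SP against WT SP, Bid differed by 0.31, Bad by 0.21, Bax by 0.05, Pmaip1 by -0.07, Bcl2l11 by -0.21 and Bbc3 by -0.32, none called (adjusted p = 0.407 to 0.956).

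Counted over the family, 2 of the 9 tested members were called in KO DP against WT SP, Bcl2 lower and Pmaip1 higher, where 18% of all tested genes were called. As deposited the count was 1 of 9, Bcl2, against 7.89% of all genes. Groups did not overlap for 3 of 9 members (Bcl2, Mcl1 and Bad), against 19.6% of all genes, and as deposited for 2 of 9 (Bcl2 and Mcl1), against 16.5%. In KO DP against KO SP, 1 of 9 was called (Bcl2) on both scales, against 5.91% of all genes scaled and 2.07% as deposited, and 2 of 9 did not overlap (Bcl2 and Pmaip1) on either scale, against 40.2% scaled and 39.9% as deposited. In KO SP against WT SP limma called 0 of 9, against 0.179% of all genes (0.116% as deposited). Groups did not overlap there for 2 of 9 (Bcl2l1 and Mcl1), against 29.4% of all genes. As deposited 0 of 9 were free of overlap there, against 32.2%. With 9 members, the shares called lie near those of all genes.

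The median log2 difference of the 9 tested members was 0.02 in KO DP against WT SP, 0.01 against KO SP, and -0.21 in KO SP against WT SP. Over all tested genes the medians were -0.04, 0.00 and 0.02. As deposited the members' median was -0.36 in KO DP against WT SP and that of all genes was -0.38.

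**Figure D2:**
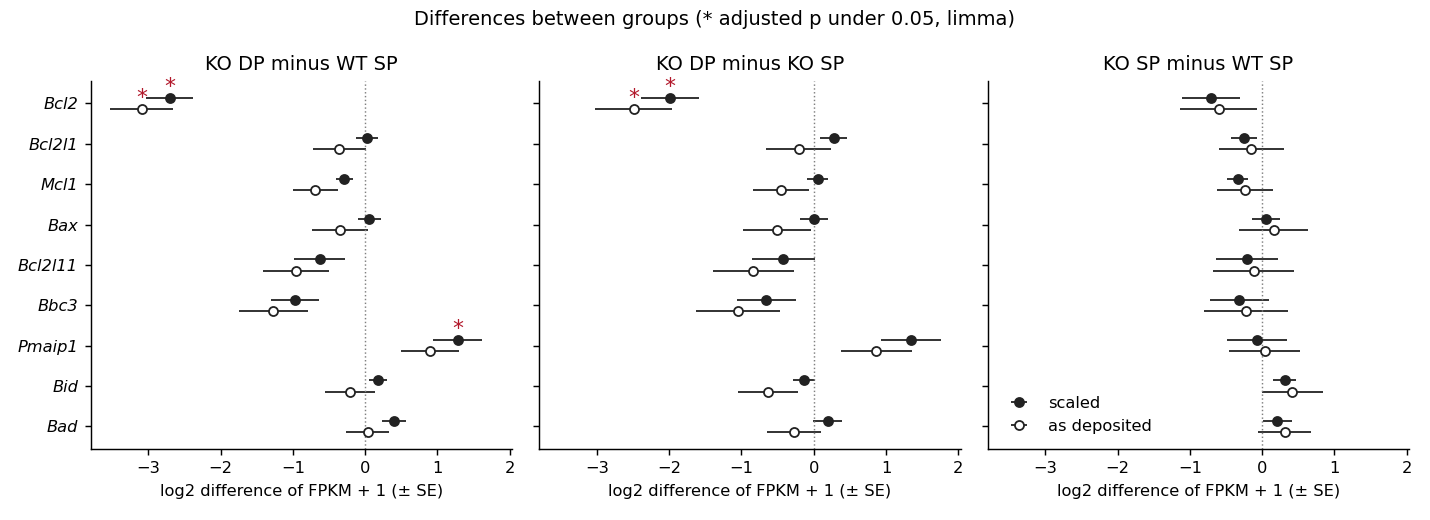
Log2 differences of the 9 tested members in the 3 comparisons, with bars of 1 SE; filled points are size-factor scaled values, open points values as deposited, and asterisks mark adjusted p under 0.05 in limma. Bcl2 lies at -2.70 and -1.99 (scaled) in the 2 comparisons of KO DP, and the members shift left as deposited in KO DP against WT SP, as the median of all genes does (-0.38).

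Ratios of members within a library do not depend on scaling. Bcl2 made up 28.3%, 14.3%, 13.9% and 19.8% of the summed FPKM of Bcl2, Bcl2l1 and Mcl1 in KO DP, against 48.3% and 51.9% in the KO SP pair and 53.8%, 48.6%, 62.3% and 62.1% in WT SP. Mcl1 took the larger share in every KO DP library (54.7% to 69.4%), against 40.2% and 40.5% in KO SP and 30.3% to 41.3% in WT SP. The order among Bcl2, Bcl2l1 and Mcl1 thus differed: Mcl1 was first in all 4 KO DP libraries, and Bcl2 was first in both KO SP and all 4 WT SP libraries.

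Mcl1 stood at 3.68 ± 1.37 times Bcl2 in KO DP (SD, n = 4), 0.807 ± 0.0445 times in KO SP (n = 2) and 0.640 ± 0.174 times in WT SP (n = 4). Bax stood at 3.80, 8.70, 7.20 and 4.57 times Bcl2 in KO DP, at 1.78 and 1.07 times in KO SP, and at 0.949, 1.28, 0.628 and 0.571 times in WT SP. No KO DP library overlapped KO SP or WT SP in either ratio. Both have Bcl2 as the denominator and so carry its fall. Bax over Bcl2l1, which leaves Bcl2 out, was 5.91 to 6.33 in KO DP and 5.33 to 6.76 in WT SP.

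Pmaip1 over Mcl1, the pair of NOXA and its partner, was 0.254, 0.314, 0.417 and 0.326 in KO DP, against 0.139 and 0.109 in KO SP libraries and 0.0780, 0.241, 0.0610 and 0.0913 in WT SP. KO DP lay above both other groups, with WT SP 2 close to its lowest library. Bcl2l11 over Bcl2 lay at 0.176 to 0.473 in KO DP, 0.0821 and 0.104 in KO SP, and 0.0253 to 0.173 in WT SP. The 5 BH3-only genes summed to 0.567 to 0.778 times the 3 survival genes in KO DP, 0.459 and 0.312 times in KO SP, and 0.182 to 0.392 times in WT SP. This ratio and Bcl2l11 over Bcl2 hold Bcl2 in the denominator, so they carry its fall and are not separate evidence. The 3 survival genes also leave out the Bcl2a1 copies, which encode the survival protein A1. Those copies summed to 222 to 330.5 scaled FPKM in KO DP, 105 and 61.5 in KO SP, and 25.6 to 173 in WT SP. No survival sum with these copies was computed, so the ratio gives no balance of the whole family. Among the 5 BH3-only genes, Pmaip1 made up 32.2% ± 5.92 of the sum in KO DP, 13.2% ± 1.21 in KO SP and 15.3% ± 7.31 in WT SP. Bbc3 made up 7.40% ± 4.37, 12.7% ± 0.787 and 17.2% ± 4.89.

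**Figure D3:**
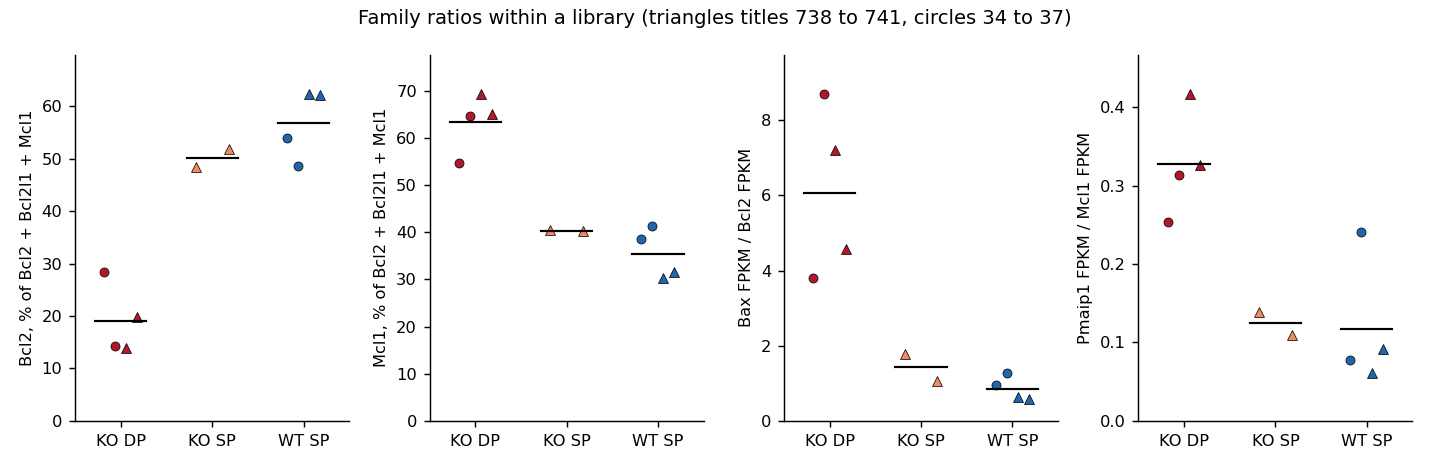
Shares of Bcl2 and Mcl1 in the 3 survival genes (%), Bax over Bcl2 and Pmaip1 over Mcl1 (ratios of FPKM) in each library, KO DP, KO SP and WT SP from left to right; triangles are titles 738 to 741, circles titles 34 to 37, bars group means. Bcl2 holds 13.9% to 28.3% of the summed FPKM of these 3 genes in KO DP and at least 48.3% in every other library.

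The genes whose log2 scaled values followed Bcl2 most closely over the 10 libraries were Rab20, a small GTPase, Socs3, a cytokine signal inhibitor, and Tlr7, an RNA sensor (Pearson r = 0.983, 0.983 and 0.981). For Pmaip1 they were Bcl2a1c, Sh3bgrl and Gm17745 (r = 0.986, 0.979 and 0.972). These coefficients describe 10 libraries that share 3 groups of differing level.

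Among the other BCL2 relatives, 13 of the 18 listed genes passed the filter. In KO DP against WT SP 5 were higher and 0 lower by limma (9.2% of all genes were higher and 8.82% lower), with a median log2 difference of 0.24. As deposited none of the 13 was called. The Bcl2a1 copies, which encode the survival protein A1 that activated lymphocytes make, account for 4 of the 5, and Bik for the other. The rule for named genes covers every measured gene of this list. Bcl2a1b, the most abundant copy, stood at 116, 146, 98.7 and 110 scaled FPKM in KO DP, at 58.4 and 33.4 in KO SP, and at 25.4, 79.8, 14.02 and 23.8 in WT SP. All KO DP libraries lay above all others, with WT SP 2 the nearest.

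Log2 differences of the Bcl2a1 copies between KO DP and WT SP were 2.33 ± 0.49 for Bcl2a1a, 1.98 ± 0.44 for Bcl2a1b, 2.31 ± 0.52 for Bcl2a1d and 1.72 ± 0.44 for Bcl2a1c (adjusted p = 0.0122, 0.0152, 0.0157 and 0.0249). The copies are near-identical, so how reads were divided among them is uncertain and the sum is the safer value. The 4 copies summed to 260, 330.5, 222 and 237 in KO DP, to 105 and 61.5 in KO SP, and to 50.8, 173, 25.6 and 41.8 in WT SP. The sum was 12.7 ± 5.91 times Bcl2 in KO DP, 0.965 ± 0.588 times in KO SP and 0.580 ± 0.675 times in WT SP. None of the 4 was called as deposited (adjusted p = 0.0589 to 0.0875) or without KO DP 3 and 4 together (0.0742 to 0.162). Bcl2a1c was also lost without KO DP 2, 3 or 4 or WT SP 1, 3 or 4 (lowest such adjusted p = 0.0559), and the other 3 copies were called with any single library left out.

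**Figure D4:**
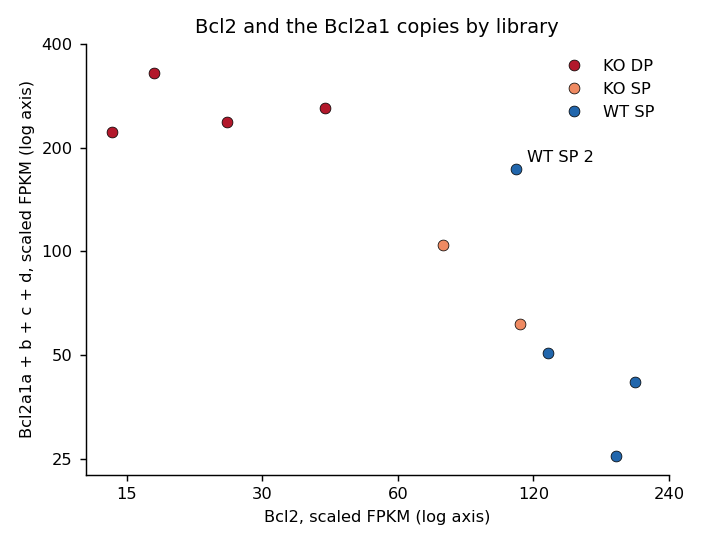
Summed scaled FPKM of Bcl2a1a, b, c and d against scaled FPKM of Bcl2, 1 point per library, both axes logarithmic. KO DP libraries sit at low Bcl2 and high Bcl2a1 (222 to 330.5), most WT SP libraries at the reverse, and WT SP 2 (173) between them.

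Bik, a BH3-only gene, stood at 4.06, 4.63, 4.49 and 2.10 scaled FPKM in KO DP, at 0.795 and 1.05 in KO SP, and at 1.52, 1.40, 2.11 and 1.70 in WT SP. Its log2 difference was 0.81 ± 0.21 against WT SP (adjusted p = 0.0268) and 1.29 ± 0.26 against KO SP (adjusted p = 0.0220), and neither was called as deposited (adjusted p = 0.281 and 0.179). The first was lost with the replicate block (adjusted p = 0.0519) and without KO DP 1, 2 or 3 or WT SP 1 or 4 (lowest such adjusted p = 0.0547), and the second without KO DP 2, KO SP 1 or KO SP 2 (lowest 0.0593). The remaining tested relatives, Bcl2l12, Bcl2l13, Bcl2l14, Bcl2l15, Bnip1, Bnip2, Bnip3 and Bnip3l, were not called. Bcl2l2, Bcl2l10, Bok, Bmf and Hrk did not pass the filter and lay at or below 1.10 scaled FPKM in every library.

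Downstream of the pore, 2 of the 13 listed caspase and apoptosome genes were lower in KO DP than in WT SP, Endog and Casp2. Of all genes 8.82% were lower, and the list median was -0.05. Endog stood at 8.59, 6.86, 4.55 and 5.65 scaled FPKM in KO DP, at 15.6 and 17.6 in KO SP, and at 18.1, 12.01, 17.2 and 15.8 in WT SP. All KO DP libraries lay below both other groups. Endog, the mitochondrial nuclease, was lower, by a log2 difference of -1.19 ± 0.19 (adjusted p = 0.00326), and of -1.27 ± 0.23 against KO SP (adjusted p = 0.0158). The call against KO SP was lost without KO SP 1 or KO SP 2 (lowest such adjusted p = 0.119) and as deposited (0.0663).

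Casp2, an initiator caspase named after its values were seen, differed by -0.44 ± 0.13 (adjusted p = 0.0483). Of 5 caspase inhibitors 1 was higher, against 9.2% of all genes: the survivin gene Birc5 (2.18 ± 0.65, adjusted p = 0.0454, limma). Each of these calls was lost when any 1 of 8 libraries was left out, all but KO DP 1 and WT SP 2 (lowest such adjusted p = 0.0551 for Casp2 and 0.0546 for Birc5). With the replicate block neither was called (adjusted p = 0.109 and 0.0811). Birc5, also a mitosis gene, stood at 58.5, 133, 218 and 141 in KO DP, at 83.7 and 27.2 in KO SP, and at 42.4, 77.9, 10.99 and 13.4 in WT SP. In the death receptor pathway 1 of 12 genes was higher and 0 lower, against 9.2% and 8.82% of all genes. Fas, the receptor that triggers BID cleavage, stood at 55.8, 57.9, 33.3 and 34.2 in KO DP, at 35.7 and 22.9 in KO SP, and at 23.2, 20.3, 17.3 and 19.7 in WT SP. It was higher by 1.09 ± 0.22 (adjusted p = 0.00959) and was called with any single library left out, but not as deposited (adjusted p = 0.289).

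Cytokine survival signals, which control Bcl2 in T cells, held 2 higher and 6 lower of 16 genes in KO DP against WT SP. Of all genes 9.2% were higher and 8.82% lower, and the list median was -0.68. The list mixes receptors and kinases with inhibitors of the signal, among them Socs3, so its count gives no direction of signalling. Socs3 fell by 2.40 on the log2 scale (SE 0.29, adjusted p = 0.000829) and Il4ra, the receptor chain of interleukin 4, by 2.57 (SE 0.33, adjusted p = 0.00114). Cish, a STAT5 target, stood at 54.3, 37.7, 32.7 and 53.0 scaled FPKM in KO DP, at 13.5 and 14.04 in KO SP, and at 8.19, 16.6, 12.4 and 16.9 in WT SP, a rise of 1.66 ± 0.24 (adjusted p = 0.00202; 0.0504 as deposited). Socs3, Il4ra and Cish were called with any single library left out.

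Il7r, the interleukin 7 receptor chain, lies outside the rule for named genes and was added after its values were seen. It stood at 91.6, 47.4, 54.6 and 83.5 scaled FPKM in KO DP, at 175 and 217 in KO SP, and at 189, 77.1, 197 and 203 in WT SP. WT SP 2 lay inside the KO DP range. The log2 difference was -1.21 ± 0.33 (adjusted p = 0.0328, limma). That call was lost without KO DP 2, 3 or 4, KO SP 1 or 2, or WT SP 1, 3 or 4 (lowest such adjusted p = 0.0518). The other called genes of the list were also named after their values were seen. Il2ra was higher, at 3.10 to 6.52 in KO DP, 1.63 and 0.915 in KO SP, and 0.465 to 1.51 in WT SP. Jak1, Pim2 and Il21r were lower. Il2ra, Jak1, Pim2 and Il21r were each called with any single library left out. As deposited the list held 1 higher and 4 lower.

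Of 9 genes that induce BH3-only genes or act on their inducers, 8 passed the filter, and Foxo3 (0.101 to 0.695 scaled FPKM) did not. In KO DP against WT SP 0 were higher and 2 lower, against 9.2% and 8.82% of all genes, with a list median of -0.45. Myc, which sensitizes cells to death, stood at 23.9, 17.5, 11.7 and 16.4 scaled FPKM in KO DP, at 59.3 and 64.6 in KO SP, and at 93.6, 50.6, 100.4 and 95.2 in WT SP. Its log2 difference was -2.22 ± 0.25 (adjusted p = 0.000566). Foxo1, one of the FOXO factors that drive Bcl2l11 and Bbc3 in cells deprived of growth signals, was lower. Its log2 difference was -0.63 ± 0.14 (adjusted p = 0.0151, limma, and 0.0885 as deposited). Both were called with any single library left out, and Foxo1 was not called without KO DP 3 and 4 together (adjusted p = 0.113). Of 8 genes for turnover of MCL1 and BIM protein, 1 was lower, against 8.82% of all genes. It was Fbxw7, part of the ligase that marks MCL1 for degradation (-0.61 ± 0.16, adjusted p = 0.0269, limma). That call was lost without KO DP 2, 3 or 4 or WT SP 1 (lowest such adjusted p = 0.0599) and with the replicate block (0.0512).

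Against KO SP, 5 of the 16 cytokine survival genes were called, 2 higher and 3 lower in KO DP, against 5.91% of all genes. Pim2, a survival kinase, differed by -1.69 ± 0.25 (adjusted p = 0.00600), Cish by 1.59 ± 0.29 (adjusted p = 0.0163) and Socs3 by -1.86 ± 0.36 (adjusted p = 0.0194). Myc differed by -1.82 ± 0.31 (adjusted p = 0.0117). Each of these 4 was lost when KO SP 1 or KO SP 2 was left out (lowest such adjusted p = 0.0744, for Pim2), and Cish was not called as deposited (adjusted p = 0.169). Dffb, the caspase-activated nuclease, differed by -0.75 ± 0.19 (adjusted p = 0.0469), a call lost without 8 of the 10 libraries, among them each KO SP library. In KO SP against WT SP limma called 0 genes of these 7 lists, against 0.179% of all genes.

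Of the 8 T cell markers, 2 were higher and 1 lower in KO DP than in WT SP, against 9.2% and 8.82% of all genes. As deposited none of them was called. Among the marker lists of other cells, only the dendritic sums in KO DP lay apart from both other groups. The 6 dendritic cell markers summed to 4.91 to 12.8 scaled FPKM in KO DP, 1.70 and 2.21 in KO SP and 1.41 to 3.04 in WT SP, and 2 of the 3 tested, Xcr1 and Zbtb46, were higher in KO DP than in WT SP. The 8 B cell markers summed to 49.7 to 131 in KO DP, 69.4 and 92.5 in KO SP and 33.6 to 95.7 in WT SP. Of these, 1 of 6 tested (Cd22) was higher in KO DP than in WT SP, where 9.2% of all genes were higher. The 6 NK cell markers summed to 3.55 to 26.1 in KO DP, 10.9 and 11.2 in KO SP and 5.54 to 28.6 in WT SP. Sums of 5 thymocyte markers overlapped too, at 14.8 to 19.9 in KO DP, 18.7 and 18.8 in KO SP and 14.5 to 23.9 in WT SP. Erythroid and myeloid sums followed the title ranges, and no marker of either list was called in any comparison. In KO SP the erythroid Hba-a2 and Hbb-b1 and the myeloid S100a8 were listed at 0. The part of these cells in the values of Bcl2, Pmaip1 and the Bcl2a1 copies was not tested.

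H3K9me3, the mark of constitutively silent chromatin that other enzymes than G9a mainly deposit, was annotated to 6 of the 10 members in at least 1 list. The 4 lists held 111149 and 154997 peaks in KO and 85960 and 23304 in WT, and of these 18 and 19 (KO) and 22 and 14 (WT) were annotated to a member by the authors (mm9). Bcl2l11 held 13 and 14 of them in KO and 14 and 8 in WT. Pmaip1 held 4 and 5 in KO and 3 and 2 in WT. No list had a peak annotated to Bcl2l1, Bak1, Bbc3 or Bad. Members with a peak numbered 3 and 2 of 10 in KO and 5 and 5 of 10 in WT, and the lists annotated 11718 and 13015 genes in all in KO and 12879 and 8341 in WT. With 2 lists per genotype of such unequal length, no test was made.

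Regions of the lists were joined where they shared at least 1 bp. At Bcl2l11 this gave 17 regions, of which 6 occurred in all 4 lists, and the nearest lay between -6564 and -6285 bp from the start site. Every Bcl2l11 peak before the start site was annotated to an intron, and every one after it as intergenic. The highest score of the deposited lists at Bcl2l11, 62.8, belonged to a WT 1 peak at chr2:127935215-127936967 (mm9), centred -15683 bp from the start. It was annotated to intron 17 of 17 of the transcript NM_028765. Since the peak lies before the Bcl2l11 start, that intron is not of a transcript beginning there. The same region occurred in KO 1 (score 36.9), KO 2 (42.4) and WT 2 (20.5), above 97.5%, 97.7%, 96.5% and 63.2% of the scores in KO 1, KO 2, WT 1 and WT 2. At Pmaip1, 2 of 6 regions occurred in all 4 lists, about 25 kb before and 22 kb after the start site.

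Mcl1, Bcl2 and Bax carried isolated peaks in WT lists alone, none scoring above the median of its list. Mcl1 had 2 peaks in each WT list, the nearest at 11292 and 11261 bp, and 0 in either KO list. Bcl2 had 1, at 37286 bp in WT 1 (score 8.12), annotated to an intron. Bax had 1, at -921 bp in WT 2 (score 15.8), annotated to the promoter. Bid had 1 and 0 peaks in KO and 2 and 1 in WT, and 1 region near -4.20 kb was shared by KO 1 and WT 2. Over all members, 9 of the 73 peaks lay within 10 kb of a start site. Among all peaks, 8684 of 111149 and 11639 of 154997 did so in KO, and 9453 of 85960 and 3832 of 23304 in WT.

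**Figure D5:**
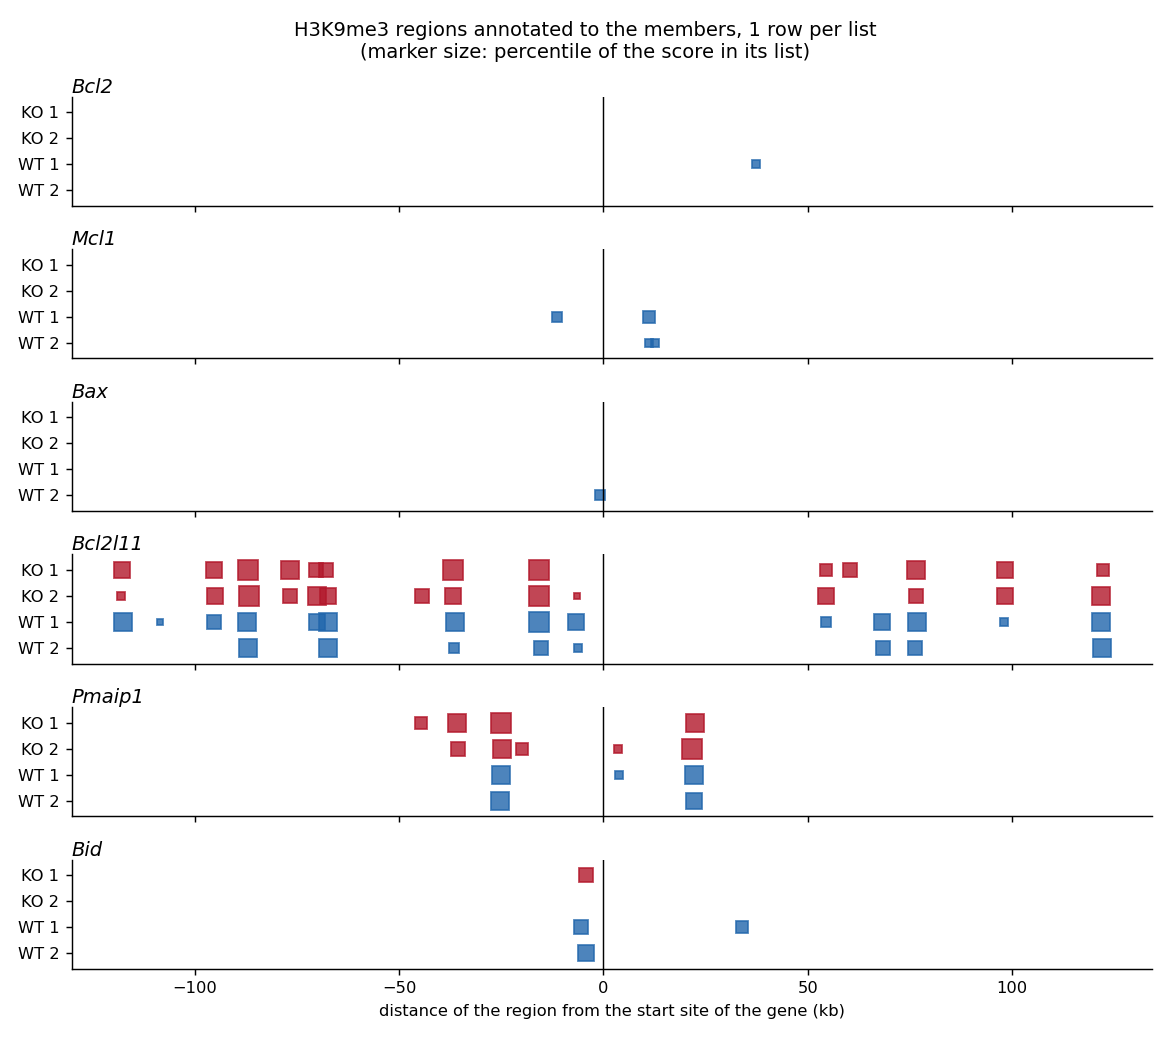
H3K9me3 regions annotated to 6 members by distance from the gene's start site (kb, start at the vertical line), 1 row per list with KO 1 and KO 2 above WT 1 and WT 2; a larger square has a higher score percentile within its list. Bcl2l11 carries 8 to 14 regions per list, the nearest at -6285 bp, while Bcl2, Mcl1 and Bax have 1 or 2 peaks, in WT lists.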

How the data were processed

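RNA came from 10 libraries made with a full-length kit that does not mark strand, per the labels' protocols, so overlapping antisense transcripts cannot be separated. The authors deposited FPKM per gene; TopHat, Cufflinks, Bowtie, HOMER and mm9 are named in the submitters' processing notes, versions: not given in the sources used here. Deposited H3K9me3 lists give a position, a score, an annotation and the distance to a start site per peak, per the file headers. Of the table's 23700 lines, 716 share a symbol, and lines of the same symbol were summed; 16 columns of no listed sample were not used. FPKM holds no counts, so the depth behind a value is unknown.

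Each library was divided by its median-ratio size factor over 11742 genes above 0 in all libraries. Genes with a mean of at least 0.5 deposited FPKM (11162) were tested on log2(scaled FPKM + 1), a pseudocount of 1, with limma 3.58.1 (R 4.3.3; lmFit, eBayes with trend), all 3 groups in 1 fit (7 residual degrees of freedom), and p was adjusted by Benjamini-Hochberg over all genes tested (threshold 0.05). A fold on this scale understates the change of low genes. The procedure was tested on simulated data. Labels do not call libraries separate animals, and p-values then reflect only how far these samples spread, possibly for technical reasons. KO DP and WT SP libraries of the same description number deviated together from their group means, with correlations of 0.151, 0.305, 0.101 and 0.135. Libraries of unlike number in the same title range did so too. In titles 34 to 37, KO DP 1 with WT SP 2 gave 0.0743 and KO DP 2 with WT SP 1 gave 0.183. In titles 738 to 741, KO DP 3 with WT SP 4 gave 0.198 and KO DP 4 with WT SP 3 gave 0.268. The values thus do not single out the description number within a title range. That number was used as a block in an alternative fit.

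Up to 3 called genes of each list and comparison were named, by smallest p, besides every measured gene of the other BCL2 relatives. Some results of the caspase list are not reported here. The members and lists were chosen with earlier results of these data known. Alternatives were the deposited scale, a common total, a pseudocount of 0.1, no filter, no trend, the title range as covariate or alone, replicate blocks, and leaving out libraries. Figures were drawn with matplotlib 3.10.9 (Python 3.11.15).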

Additional observations from a re-analysis of the deposited data

Results flagged for a closer look

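In groups of 4 libraries, 3 of 54 sets of member values had a library set apart from the other 3 by more than Dixon's critical value, and chance flags about 1 in 20 groups. Bid stood at 30.3 scaled FPKM in WT SP 4, against 23.6 to 24.5 in the other WT SP libraries. Pmaip1 over Mcl1 was 0.241 in WT SP 2, against 0.0610 to 0.0913 in the others. Bad made up 16.5% of the 5 BH3-only genes in WT SP 1, against 11.9% to 12.5% in the others.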

How the results depend on the processing

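Bcl2 kept its direction under every alternative run in all 3 comparisons, and its call against WT SP was lost only within titles 34 to 37. The cause of the changes below was not tested, except that fits on fewer libraries have fewer degrees of freedom. FPKM without counts leaves depth unknown, which limits Bak1 most. Alternatives with a common total, a pseudocount of 0.1 or no trend moved no count of called members.

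In KO DP against WT SP, 2011 genes and 2 members were called; the counts were 881 and 1 as deposited, 867 and 1 without KO DP 3 and 4, 3182 and 4 within titles 738 to 741, 59 and 0 within titles 34 to 37, and 1137 to 2739 and 1 to 3 with 1 library left out. The title range as a covariate gave 3109 genes, and no filter gave 1 member. The replicate block on the description number gave 1 member, Bcl2 (adjusted p = 0.0103, limma). That block changed the call of Pmaip1, Bik, Casp2, Birc5 and Fbxw7 and of no other gene called by name in this comparison. Il2ra, Jak1, Pim2 and Il21r were not looked at there.

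In KO DP against KO SP, 660 genes and 1 member were called; the counts were 231 genes as deposited, 371 and 0 without the filter, 1775 and 3 within titles 738 to 741, 0 members without KO DP 3 and 4, and 59 to 1334 and 0 to 2 with 1 library left out. Pairs by title number, KO DP 3 with KO SP 1 and KO DP 4 with KO SP 2, had correlated deviations of 0.154 and 0.0317. With 2 KO SP libraries the deviations of that group mirror each other, so these values cannot show whether the number marks a shared source. That replicate block gave 14 genes and 0 members, with Bcl2 at -2.24 (adjusted p = 0.0533, limma). In KO SP against WT SP, 20 genes were called, 13 as deposited, 56 within titles 738 to 741 and 12 to 29 with 1 library left out. A replicate block on the description number over all libraries, added after seeing the data, gave 2636 and 1406 genes in these 2 comparisons.

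Differences near 0 changed sign, none of them called. In KO DP against WT SP, Bax was -0.35 as deposited and -0.11 within titles 738 to 741 (-0.0403 to 0.17 with 1 library left out), Bcl2l1 -0.36 and -0.24 (-0.0618 to 0.13), and Bid -0.21 and -0.0046. In KO DP against KO SP, the deposited scale gave -0.28 for Bad, -0.51 for Bax, -0.21 for Bcl2l1 and -0.46 for Mcl1. Bax was there -0.17 with the covariate and -0.25 both within titles 738 to 741 and with the title block (-0.0904 to 0.12 with 1 library left out), Bid ran from -0.31 to 0.0463 and Mcl1 from -0.17 to 0.28. In KO SP against WT SP, Bax was -0.13 with the description block (-0.0338 to 0.13 with 1 left out), Bbc3 0.0412 with the covariate, Bcl2l11 0.19 with the covariate and 0.30 within titles 738 to 741 (-0.62 to 0.20), and Pmaip1 0.03 as deposited, 0.0451 with the covariate and 0.31 within titles 738 to 741 (-0.31 to 0.31). Of the 73 peaks at members, 9 lay within 10 kb of a start site, beside the counts for all peaks given above.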
